A study of Mus musculus with 20 samples.

Results

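The subject is the effect of an antibody against PD-1 on the transcriptome of irradiated CD11c+CD11b+ cells sorted from MC38-OVA tumours, a mouse colon carcinoma line made to express ovalbumin. It rests on 4 of the 20 libraries, taken by population and treatment from the labels: the irradiated CD11c+CD11b+ libraries, 2 with anti-PD-1 and 2 without. The host mice were of the C57BL/6 strain. All 4 groups received 8 Gy of focal radiotherapy (RT) on day 12 and were harvested on day 17, 5 days later. The groups without anti-PD-1 were RT alone and RT with 400 µg doses of an antibody against SIRPa (RT + anti-SIRPa). Those with it were RT with 250 µg doses of anti-PD-1 (RT + anti-PD-1) and RT with both antibodies. Another CD11c+CD11b+ library, from mice without treatment, is given beside them for its levels. Each library was made from leukocytes pooled from 10 tumours, 1 per mouse, and no treatment had a second library. The p-values therefore set the mean effect of anti-PD-1 against how far it differed with and without anti-SIRPa, not against the spread between pools treated alike. That measure of spread was drawn in part from all genes.

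Activated T cells carry PD-1, a receptor that dampens them, and its ligands PD-L1 (Cd274) and PD-L2 (Pdcd1lg2) are displayed by tumour and myeloid cells. Blocking PD-1 is known to raise interferon gamma release by T cells. Interferon gamma acts on macrophages and dendritic cells through the kinases JAK1 and JAK2, and induces IRF1, guanylate-binding proteins, nitric oxide synthase, PD-L1 and the feedback inhibitor SOCS1. Sterol and fatty acid synthesis in the same cells is controlled by the SREBP factors, and lipid efflux by the liver X receptors (LXR). SIRPa, the target of the other antibody, is the myeloid receptor for CD47 and restrains phagocytosis.

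The labels call these cells dendritic cells, and their macrophage markers stood higher as a list than their dendritic cell markers. Per kb of exon, the 12 macrophage markers summed to 5776 to 7184 normalised CPM (counts scaled to library size) in the irradiated libraries. The 6 markers shared by dendritic cells summed to 961 to 1463 on the same scale. Since these lists differ in length, their medians per gene were 255.3 to 289.2 for macrophages and 32.48 to 43.25 for dendritic cells. Markers of mature dendritic cells summed to 435 to 624, and those of conventional dendritic cells to 241.5 to 381.7 (cDC2) and 199 to 278 (cDC1). Csf1r, the macrophage growth factor receptor, lay at 239 to 287 CPM per kb, and Zbtb46, a factor of conventional dendritic cells, at 1.14 to 2.95. Itgax, another of the 6 shared dendritic cell markers, was higher than Zbtb46, at 62.7 to 80.4. Not scaled by length, H2-Aa and H2-Ab1, also of these 6, were at 1420 to 2162 and 1334 to 2059 CPM. Csf1r was at 1380 to 1657 CPM on that scale. No macrophage marker of the 12 passed edgeR's test for anti-PD-1 (1 at an unadjusted p under 0.05, 0 by DESeq2), and none of 10 inflammatory monocyte markers did (5 unadjusted, 1 by DESeq2). The RT + anti-SIRPa library stood apart in dendritic cell genes. Ccr7, the receptor that leads mature dendritic cells to lymph nodes, was at 30.4 CPM there and at 86.1 to 106 CPM in the other 3 irradiated libraries. Library totals were 26.5 to 35.7 M (mega) counts, and mitochondrial genes held 0.747 to 0.974% of them.

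Promoter sequences of 4 genes show where known binding letters lie in the groups that moved. Each run is the 250 bases before the start site, 5′ to 3′ on the gene's strand, from RefSeq on GRCm38.p6. Capitals mark any match, on either strand, to one of 6 motifs. These were TTCNNNGAA (GAS, the interferon gamma-activated site), GAAA and GAAA with 2 free bases between (the core of the ISRE, bound by IRF factors), TTTGAA (CHR, of cell cycle genes), CCAAT (NF-Y), GGGA and CC with 4 free bases between (NF-kB) and TCACNCCAC (sterol regulatory element). Irf1 and Hmgcs1 were picked from their lists as examples after their matches were seen.
Irf1, chr11:53769764-53770013, plus strand: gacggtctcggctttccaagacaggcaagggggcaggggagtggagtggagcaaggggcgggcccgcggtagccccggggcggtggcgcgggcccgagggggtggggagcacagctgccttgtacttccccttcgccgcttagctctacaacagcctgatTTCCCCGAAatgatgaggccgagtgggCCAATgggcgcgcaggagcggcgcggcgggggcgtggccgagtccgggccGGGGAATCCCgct
Socs1, chr16:10785537-10785786, minus strand: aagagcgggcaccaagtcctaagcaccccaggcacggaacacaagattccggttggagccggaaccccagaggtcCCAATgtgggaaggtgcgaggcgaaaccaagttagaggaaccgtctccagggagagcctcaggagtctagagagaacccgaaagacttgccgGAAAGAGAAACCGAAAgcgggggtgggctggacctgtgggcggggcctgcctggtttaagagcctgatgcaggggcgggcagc
Cdk1, chr10:69352913-69353162, minus strand: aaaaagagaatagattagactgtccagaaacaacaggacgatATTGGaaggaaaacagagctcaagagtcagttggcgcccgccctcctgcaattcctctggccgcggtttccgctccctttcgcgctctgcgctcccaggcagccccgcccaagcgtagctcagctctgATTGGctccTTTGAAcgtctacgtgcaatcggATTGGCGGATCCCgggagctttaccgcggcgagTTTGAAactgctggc
Hmgcs1, chr13:119690101-119690350, plus strand: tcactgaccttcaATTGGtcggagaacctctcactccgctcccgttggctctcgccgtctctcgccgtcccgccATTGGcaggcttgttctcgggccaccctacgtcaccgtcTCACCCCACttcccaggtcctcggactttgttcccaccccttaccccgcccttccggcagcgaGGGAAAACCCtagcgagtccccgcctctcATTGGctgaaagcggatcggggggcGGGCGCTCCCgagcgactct

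In Irf1, the run of capitals that begins 90 bases before the start is a GAS, followed by an NF-Y box and an NF-kB match. Socs1 carried 2 ISRE cores that overlap each other, from 83 and 77 bases before the start, and an NF-Y box. Cdk1 carried CHR letters from 71 and 15 bases before the start and 3 NF-Y boxes, the last of which overlaps an NF-kB match. Hmgcs1, which makes the precursor of cholesterol synthesis, held 3 NF-Y boxes, 1 sterol regulatory element and 2 NF-kB matches in the letters shown. The windows of Cd274 and Fads2 held none of these letters, and the table had no entry for Nos2. The table holds a second Irf1 window, for a start further along the gene, which had no match. These matches describe the letters only.

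Windows of 300 bases, which add the first 50 bases after the start, were searched for whole lists. GAS letters stood in 10 of 25 windows (40.0%) of the interferon gamma response list and in 8.3% of all 32851 windows. ISRE cores stood in 13 of those 25 windows (52.0%) and in 3.44% of all. CHR letters stood in 14 of 34 windows of cell cycle genes (41.2%) and in 17.9% of all, and NF-Y boxes in 26 of the 34 (76.5%) and in 37.4% of all. Of 16 windows of cholesterol genes, 13 held an NF-Y box (81.2%) and 1 a sterol regulatory element (6.25%, against 1.24% of all). Over all genes that rose with anti-PD-1 (277 windows), GAS letters stood in 10.1%, ISRE cores in 3.61%, CHR letters in 9.03%, NF-Y boxes in 36.1%, NF-kB matches in 27.8% and the sterol regulatory element in 2.89%. Over all that fell (767 windows) these shares were 7.04, 3.52, 17.6, 41.7, 30.5 and 1.56%, and over all genes tested (14653 windows) 6.93, 3.25, 12.8, 37.5, 25.9 and 1.15%. CHR letters were thus less frequent than over all genes tested where genes rose and more frequent where they fell, with no test.

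With anti-PD-1, 368 of 19191 tested genes rose (1.92%) and 910 fell (4.74%), so 6.66% were called in either direction. Genes were called at a Benjamini-Hochberg adjusted p under 0.05 in edgeR's quasi-likelihood test, with anti-SIRPa as an additive term. The genes that fell included most of the cell cycle list and many genes of sterol and fatty acid synthesis, and those that rose included targets of interferon gamma. Effects were moderate. Among the 9554 genes at 10 CPM or more in 2 libraries, 27 called genes had risen and 98 had fallen past 2-fold. The median log2 fold change of all tested genes was 0.00. These calls depend on the anti-SIRPa term: without it 3 genes passed, Kctd12, Gm49450 and 4933427D14Rik, all higher. Without the filter on low counts none passed in edgeR's test (4323 at an unadjusted p under 0.05). Fewer genes passed when any 1 library was left out, but those fits also dropped the anti-SIRPa term. The calls lost to the library alone can therefore not be told apart from those lost to the term. Of 41 gene lists 27 held a called member, and fewer did in those fits. Called were 12 interferon gamma, 11 cholesterol, 8 fatty acid and 30 cell cycle genes, and fewer of each in those fits. Of 82 called genes examined by name, the log2 fold change moved by over 1.5 times for 9, 35, 12 and 3. These are the numbers without RT, RT + anti-SIRPa, RT + anti-PD-1 and RT with both, and the moved values are given beside the genes. In bulk samples, fewer cells of a type and less RNA per cell cannot be told apart.

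**Figure D1:**
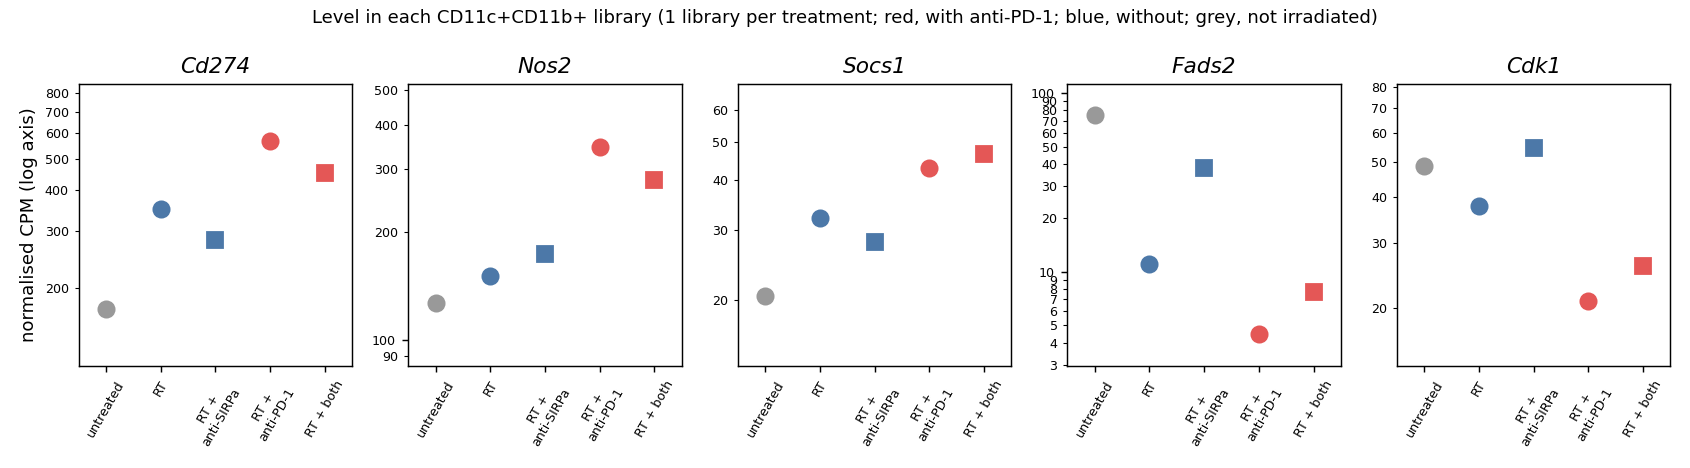
Normalised CPM on a log axis of Cd274, Nos2, Socs1, Fads2 and Cdk1 in the 5 CD11c+CD11b+ libraries, 1 point per library, without error bars because each treatment is 1 library. The 2 libraries with anti-PD-1 (red) lie above both irradiated libraries without it (blue) for Cd274, Nos2 and Socs1 and below both for Fads2 and Cdk1. Of all genes tested, 25.8% lie above in this way and 28.9% below.

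PD-L1 transcripts rose with anti-PD-1. Cd274 (chromosome 19, 29367455 to 29388095) was at 351 CPM with RT and 281 with RT + anti-SIRPa, at 570.0 with RT + anti-PD-1 and 452 with both, and at 172 without treatment. Both libraries with anti-PD-1 were above both without it. Of all genes tested, 25.8% lay above in this way and 28.9% below, which applies to each gene described so below. The log2 fold change was 0.71 ± 0.09 (approximate standard error, edgeR adjusted p = 0.009585), and it was 0.70 without and 0.69 with anti-SIRPa. Reads from Cd274 and its antisense gene AC119228.1, which held 770 to 1742 counts beside 9849 to 15184 for Cd274 in the irradiated libraries, cannot be told apart if strand was not used. Pdcd1lg2, the second ligand, was at 30.4, 10.6, 35.1 and 35.6 CPM in the order RT, RT + anti-SIRPa, RT + anti-PD-1 and both, and did not pass (log2 fold change 0.97, edgeR adjusted p = 0.1079). In that gene the low value was that of the RT + anti-SIRPa library. The receptor gene Pdcd1 itself was at 2.51 to 5.49 CPM in the irradiated libraries and did not pass (0.80, edgeR adjusted p = 0.1152). Sirpa, at 1008 to 1155 CPM, and Cd47, at 435 to 528 CPM, had log2 fold changes of 0.14 and 0.09 that did not pass (edgeR adjusted p = 0.4299 and 0.6606).

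Genes that interferon gamma induces rose in part. Of 35 tested genes of that list 12 rose and none fell, and the median log2 fold change of the list was 0.37. Besides Cd274, these were Nos2, Socs1, Irf1, the guanylate-binding protein genes Gbp2b, Gbp4, Gbp5 and Gbp8, the protease inhibitor gene Serpina3g, Acod1, Il12rb1 and Il18bp. Nos2, which encodes the inducible nitric oxide synthase (chromosome 11, 78920787 to 78960254), was at 151 CPM with RT and 174 with RT + anti-SIRPa, and at 347 with RT + anti-PD-1 and 279 with both. Both libraries with anti-PD-1 were higher, at a log2 fold change of 0.96 ± 0.13 (edgeR adjusted p = 0.01152). Socs1, the feedback inhibitor of JAK kinases whose ISRE cores are shown above (chromosome 16, 10782240 to 10785536), was at 32.2 and 28.0 CPM without anti-PD-1 and at 42.9 and 46.6 with it. Its log2 fold change was 0.59 ± 0.11 (edgeR adjusted p = 0.0268). Irf1, with the GAS shown above, went from 329 and 287 CPM to 410 and 388, a rise of 0.39 ± 0.09 (edgeR adjusted p = 0.04704).

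Among the guanylate-binding protein genes, which act against intracellular microbes, Gbp2b rose by 0.68, Gbp8 by 0.67, Gbp4 by 0.56 and Gbp5 by 0.55 on the log2 scale. These are close paralogues, and Gbp4, Gbp8 and Gbp9 overlap on the same strand, so the split of counts among them is uncertain. Il18bp, which binds and blocks interleukin 18, rose by 0.62. Serpina3g rose by 0.64. Acod1, which makes itaconate, rose by 0.42. Without the RT + anti-SIRPa library Gbp5 was at 0.36 and Serpina3g at 0.40, and without the RT + anti-PD-1 library Gbp8 was at 0.44.

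Other members of the interferon gamma list did not pass. The chemokine gene Cxcl9 was at 122 and 88.8 CPM without anti-PD-1 and at 119 and 141 with it (log2 fold change 0.33, edgeR adjusted p = 0.2352). Cxcl10 was at 354, 356, 285 and 356 CPM in the same order (-0.14, edgeR adjusted p = 0.4281). In both chemokines the groups overlapped. The list's ratios were larger in the presence of anti-SIRPa. The median single-library log2 ratio was 0.12 for RT + anti-PD-1 over RT and 0.57 for both antibodies over RT + anti-SIRPa, a difference that was not tested.

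The type I interferon list stood near all genes tested. Of its 29 tested members none passed in edgeR's test (2 at an unadjusted p under 0.05, 0 by DESeq2), and the median was -0.02. Isg15, a ubiquitin-like antiviral protein gene, was at 186 and 178 CPM without anti-PD-1 and at 142 and 164 with it, below both (log2 fold change -0.24, edgeR adjusted p = 0.1611). Bst2, which tethers budding virus, had a log2 fold change of -0.23 (edgeR adjusted p = 0.1506).

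Of 22 genes of cytokine receptors, JAK kinases and STAT factors 3 rose, with a list median of 0.24. All 3 belong to interleukin 12 signalling: the receptor chains Il12rb1 at 0.58 and Il12rb2 at 0.94 and the factor Stat4 at 0.83. The part of RNA from T or NK cells in these 3 rises was not tested. Il12rb1 lay at 28.0 and 24.8 CPM without anti-PD-1 and at 37.96 and 40.10 with it. Stat4 was at 40.6, 23.9, 59.7 and 50.7 CPM in the order RT, RT + anti-SIRPa, RT + anti-PD-1 and both, and without the RT + anti-SIRPa library its log2 fold change was 0.45 and that of Il12rb2 0.51. Jak2 did not pass (0.44, edgeR adjusted p = 0.112). Of 14 inhibitors of cytokine signalling only Socs1 passed in this test, and Socs2 had a log2 fold change of 0.49 (edgeR adjusted p = 0.07491).

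**Figure D2:**
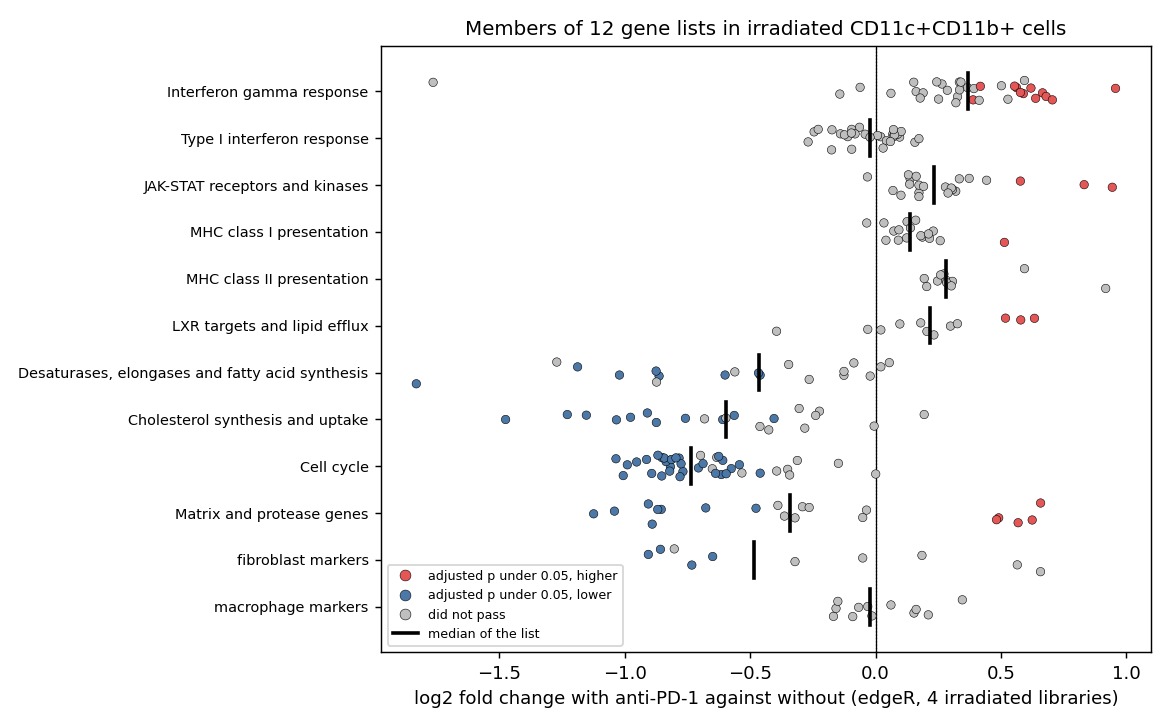
Log2 fold change with anti-PD-1 against without, for the tested members of 12 gene lists in the 4 irradiated CD11c+CD11b+ libraries; each point is a gene, coloured where its adjusted p was under 0.05, and bars are list medians. The medians lie at 0.37 for the interferon gamma response, -0.02 for the type I response, -0.60 for cholesterol synthesis and -0.74 for the cell cycle.

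Genes of arginine and amino acid metabolism changed in both directions: of 18 tested, 3 rose and 1 fell. Besides Nos2 and Acod1, Il4i1, an amino acid oxidase, rose from 3.26 and 0.599 CPM to 10.6 and 4.15. It overlaps Nup62 on the same strand, which had 996 to 1736 counts in the irradiated libraries against 21 to 282 for Il4i1, so its level is uncertain. Its log2 fold change of 2.17 was 3.62 without RT, 1.18 without RT + anti-SIRPa and 1.12 without RT + anti-PD-1. Slc7a1, a transporter that takes up arginine, was at 73.6 and 91.4 CPM without anti-PD-1 and at 51.8 and 63.6 with it, a log2 fold change of -0.50 ± 0.08 (edgeR adjusted p = 0.01828). Arg2, the mitochondrial arginase, had a log2 fold change of 0.86 that did not pass (edgeR adjusted p = 0.08567).

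Fatty acid synthesis genes fell in part: of 19 tested, 8 fell and none rose, with a list median of -0.47. Fads2, the desaturase that begins the conversion of essential fatty acids (chromosome 19, 10062765 to 10101746), was at 11.1 CPM with RT and 37.9 with RT + anti-SIRPa, and at 4.47 with RT + anti-PD-1 and 7.70 with both. It stood at 75.1 CPM without treatment. The groups did not overlap, and the library of RT + anti-SIRPa was the highest of the irradiated ones. The log2 fold change was -1.83 ± 0.24 (edgeR adjusted p = 0.009826), and it was -0.85 when the RT + anti-SIRPa library was left out.

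The stearoyl-CoA desaturase gene Scd1 was at 33.4 and 63.4 CPM without anti-PD-1 and at 15.3 and 26.3 with it (log2 fold change -1.19 ± 0.10, edgeR adjusted p = 0.005655). Fasn, the fatty acid synthase, fell from 180 and 285 CPM to 96.9 and 157 (-0.86 ± 0.08, edgeR adjusted p = 0.00693). The other members that fell were the elongase Elovl6 at -1.02, the malic enzyme Me1 at -0.87, which supplies NADPH, Fads1 at -0.60, the acetyl-CoA carboxylase Acaca at -0.47 and Scd2 at -0.46. Without the RT + anti-SIRPa library Scd1 was at -0.67, Elovl6 at -0.62, Fasn at -0.50, Fads1 and Acaca at -0.26 and Scd2 at -0.10. Without the RT + anti-PD-1 library Me1 was at -0.56, Fasn at -0.55 and Scd2 at -0.30. Without RT, Fads1 was at -0.93 and Scd2 at -0.80, and without the library of both antibodies Scd2 was at -0.70. The direction was the same each time, and the size of these falls depended on single libraries.

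Of 21 tested genes of cholesterol synthesis and uptake 11 fell and none rose, with a median of -0.60. Fdps, which makes farnesyl diphosphate (chromosome 3, 89093588 to 89101959), was at 18.0 and 38.2 CPM without anti-PD-1 and at 8.56 and 14.5 with it. Both values with anti-PD-1 were lower than both without, at a log2 fold change of -1.23 ± 0.14 (edgeR adjusted p = 0.008032). The squalene epoxidase Sqle fell by 1.15 and the demethylase Cyp51 by 0.98 on the log2 scale. Hmgcs1, whose promoter is shown above, fell from 38.8 and 52.3 CPM to 26.1 and 32.8 (-0.61 ± 0.10, edgeR adjusted p = 0.01667). Fdps was at -0.63, Sqle at -0.57, Cyp51 at -0.55 and Hmgcs1 at -0.39 when the RT + anti-SIRPa library was left out. Cyp51 overlaps Akap9 on the opposite strand.

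Of the factors that control these lists, Srebf2, which directs sterol synthesis, fell by 0.40 ± 0.08 on the log2 scale (edgeR adjusted p = 0.03276), and was at -0.26 without the RT + anti-PD-1 library. Srebf1, which directs fatty acid synthesis, had a log2 fold change of 0.02 (edgeR adjusted p = 0.9037), with 64.6 and 71.6 CPM without anti-PD-1 and 61.7 and 75.8 with it. Its groups overlapped, and its sign changed with the processing. In the pair without anti-SIRPa alone, the median log2 ratio was -0.33 for the fatty acid list and -0.48 for the cholesterol list, against -0.02 over all genes tested.

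Of 12 tested LXR targets and lipid efflux genes 3 rose, none fell and 9 did not pass, with a median of 0.22. Abca1, a cholesterol exporter, was at 636 and 658 CPM without anti-PD-1 and at 1030.0 and 891 with it (log2 fold change 0.58 ± 0.11, edgeR adjusted p = 0.02787). Abcg1, a second exporter, rose from 272 and 214 CPM to 362 and 381 (0.63 ± 0.11, edgeR adjusted p = 0.02443), and Mylip, which targets the LDL receptor for degradation, rose by 0.52. Of 15 genes of lipid-associated macrophages, the fatty acid transporter Cd36 rose by 0.77 and the carrier Fabp5 by 0.48, while the tetraspanin Cd63 fell by 0.70 on the log2 scale and was at -0.46 without the RT + anti-SIRPa library. Plin2, which coats lipid droplets, was at 372 and 368 CPM and then at 574 and 451, and did not pass (0.47, edgeR adjusted p = 0.05057).

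The cell cycle list held the largest share of falling genes among the function lists: 30 of 40 fell and none rose, with a median of -0.74. Cdk1, the kinase that drives entry into mitosis (chromosome 10, 69335146 to 69352938), was at 37.96 and 54.43 CPM without anti-PD-1 and at 20.9 and 26.1 with it, and at 48.8 without treatment. Both libraries with anti-PD-1 were lower, at a log2 fold change of -0.95 ± 0.10 (edgeR adjusted p = 0.008032). The cyclin gene Ccnb1 fell by 1.03 and Ccne2 by 1.01 on the log2 scale, the spindle checkpoint kinase Bub1 by 0.99, the topoisomerase Top2a by 0.84, the replication factor Mcm2 by 0.64 and the proliferation marker Mki67 by 0.61. Without the RT + anti-SIRPa library Mcm2 was at -0.35 and Mki67 at -0.30, and without RT Mki67 was at -0.93. For 39 of the 40 genes both libraries with anti-PD-1 lay below both without, which was the case for 28.9% of all genes tested. The median single-library log2 ratio was -0.73 without and -0.74 with anti-SIRPa. In a fit of 12 irradiated myeloid libraries 23 of the 40 passed, while 1 of the 21 cholesterol genes and 1 of the 35 interferon gamma genes did. Those libraries are 3 populations sorted from the same 4 pools and so are not 12 independent samples.

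Some matrix genes and fibroblast markers fell with anti-PD-1 as well. Of 20 matrix and protease genes 8 fell and 5 rose, with a median of -0.34. The collagen gene Col6a1 was at 164 and 359 CPM without anti-PD-1 and at 85.0 and 144 with it (log2 fold change -1.12 ± 0.11, edgeR adjusted p = 0.007458), Col5a1 fell by 1.04, Col3a1 by 0.91 and Sparc by 0.89 on the log2 scale. The proteases split: Mmp9 fell by 0.85, whereas Mmp12, the macrophage elastase, rose by 0.66 and the collagenase Mmp13 by 0.62. Sparc was at -0.58, Col5a1 at -0.55, Col6a1 at -0.51 and Col3a1 at -0.43 when the RT + anti-SIRPa library was left out. Without the RT + anti-PD-1 library Col5a1 was at -0.68 and Mmp12 at 0.42.

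The 10 fibroblast markers summed to 1075 CPM with RT, 1687 with RT + anti-SIRPa, 755 with RT + anti-PD-1, 875 with both and 4416 without treatment. Of these, Col3a1, Pdgfra, Pdgfrb and Dcn fell and 6 did not pass. Pdgfra, at -0.86, was at -0.53 without RT + anti-SIRPa, -0.47 without RT + anti-PD-1 and -1.30 without both antibodies' library, and Pdgfrb, at -0.73, was at -0.44 without RT + anti-SIRPa. Col1a1, the main collagen of fibroblasts, was at 140, 137, 140 and 86.9 CPM in the order RT, RT + anti-SIRPa, RT + anti-PD-1 and both (-0.32, edgeR adjusted p = 0.2341), so its groups overlapped. Col3a1 made up the largest part of the fibroblast sums, at 628, 1184, 385 and 541 CPM in that order of libraries. The sums of the cell cycle list ranked the irradiated libraries as the fibroblast sums did, at 1735, 2296, 1135 and 1461 CPM. Without treatment that sum was 2159 CPM, below RT + anti-SIRPa, whereas the fibroblast sum was highest without treatment. The part of fibroblast or other non-leukocyte RNA in the fall of the cell cycle, lipid and matrix genes was not tested. Of 9 carcinoma cell markers 6, among them the keratins Krt8, Krt18 and Krt19, were too low to be tested, and none of the other 3 passed.

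Of 5 erythroid markers 2 fell. The haemoglobin genes Hbb-bt and Hbb-bs fell by 1.36 and 1.16 on the log2 scale, and the 5 markers summed to 75.9, 155, 54.8 and 47.2 CPM. The highest of these sums was that of the RT + anti-SIRPa library, without which Hbb-bs was at -0.63.

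**Figure D3:**
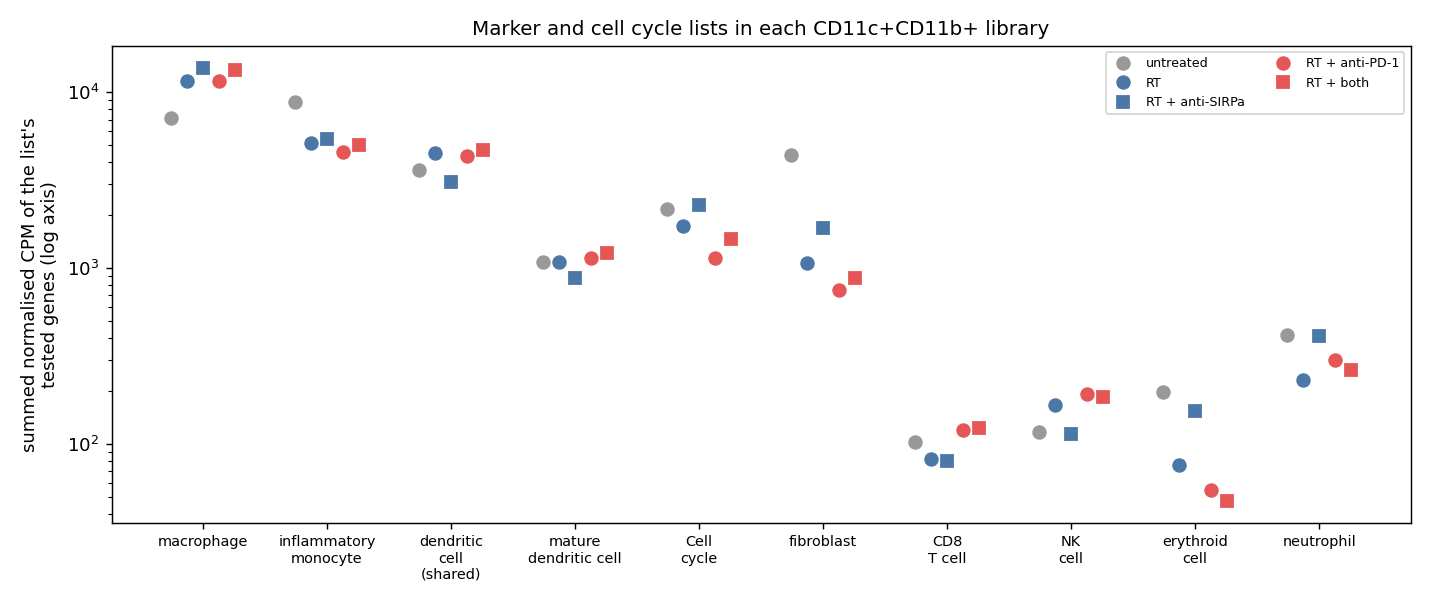
Summed normalised CPM of the tested members of 9 marker lists and the cell cycle list in each of the 5 CD11c+CD11b+ libraries, on a log axis. Fibroblast markers sum to 1075 and 1687 CPM without anti-PD-1 and to 755 and 875 with it, while macrophage markers range from 11550 to 13840 across the irradiated libraries.

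Antigen presentation changed in few genes. In the MHC class I list 1 of 17 rose, Nlrc5, the transactivator of class I genes, at 0.51 ± 0.10 (edgeR adjusted p = 0.03133). None of 11 MHC class II genes passed in edgeR's test (2 at an unadjusted p under 0.05, 0 by DESeq2), and their median was 0.28. Cd74, the invariant chain, was at 4983, 3829, 5031 and 5667 CPM in the order RT, RT + anti-SIRPa, RT + anti-PD-1 and both, so that the RT + anti-SIRPa library was the lowest. Ciita, the class II transactivator, was at 208, 106, 227 and 217 CPM and did not pass (0.59, edgeR adjusted p = 0.1084). The costimulatory ligands Cd80 and Cd86, which engage CD28 on T cells, rose by 0.53 and 0.40. Without the RT + anti-SIRPa library these were 0.26 and 0.19, and without RT 0.81 and 0.62. Cd80 was at 0.35 without RT + anti-PD-1.

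Of 16 genes of cytokines, their receptors and inhibitors in antigen-presenting cells, 3 rose. These were Il18bp, the interleukin 15 receptor chain Il15ra at 0.53 and the interleukin 1 antagonist Il1rn at 0.46. The complement gene C3 rose from 522 and 430 CPM to 758 and 743 (0.68 ± 0.10, edgeR adjusted p = 0.01542). Of 12 CC chemokine genes 1 passed: Ccl12, which attracts monocytes, fell by 0.51 on the log2 scale. None of 9 CXC chemokine ligands, 14 genes of alternative activation, 20 lysosome genes or 19 immediate early genes passed in edgeR's test, while 2, 3, 3 and 2 of them had an unadjusted p under 0.05 and 0, 1, 0 and 0 passed by DESeq2.

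Several dendritic cell genes had their lowest level in the RT + anti-SIRPa library. Flt3, a growth factor receptor of dendritic cells, rose from 22.97 and 8.96 CPM to 36.3 and 30.3 (1.20 ± 0.23, edgeR adjusted p = 0.03027), and its log2 fold change was 0.54 without that library and 1.90 without RT. Cacnb3, a calcium channel subunit of mature dendritic cells, rose by 0.97, or 0.55 without it. Ccr7 was at 86.1, 30.4, 101 and 106 CPM and Ccl22, a chemokine for CCR4-bearing T cells, at 142, 43.1, 158 and 156. Neither passed (edgeR adjusted p = 0.09746 and 0.1215). No cDC1 marker of 11 passed in edgeR's test (2 unadjusted, 1 by DESeq2), and no cDC2 marker of 8 did (2 unadjusted, 0 by DESeq2).

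Transcripts of cytotoxic lymphocytes were present at low levels. Gzmb, the granzyme B gene, was at 56.5 and 52.8 CPM without anti-PD-1 and at 85.1 and 85.1 with it, a log2 fold change of 0.65 ± 0.08 (edgeR adjusted p = 0.009585). Gzma rose from 26.5 and 20.3 CPM to 46.1 and 43.0 (0.95 ± 0.11, edgeR adjusted p = 0.008032). Of 11 CD8 T cell markers Gzmb alone passed, and their sums were 81.4 and 80.2 CPM without anti-PD-1 and 120 and 123 with it. Gzmb made up the largest part of these sums. All 11 of these markers had log2 fold changes above 0, with a median of 0.54, and 3 had an unadjusted p under 0.05. Over all 19191 genes tested, 9677 were above 0 and 4833 had an unadjusted p under 0.05. The T cell receptor component Cd3e, at 0.375 to 1.24 CPM in the irradiated libraries, had a log2 fold change of 0.14. The 8 NK cell markers summed to 166, 113, 191 and 183 CPM, and 7 of them had log2 fold changes above 0. The part of RNA from T or NK cells in these rises was not tested.

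Among the largest changes of single genes, Dgkz, a kinase that removes the second messenger diacylglycerol (chromosome 2, 91932824 to 91975864), was at 25.3 and 35.9 CPM without anti-PD-1 and at 62.0 and 83.9 with it. All values with anti-PD-1 exceeded those without, at a log2 fold change of 1.27 ± 0.09 (edgeR adjusted p = 0.003854). Il7r, the interleukin 7 receptor, rose from 81.5 and 44.2 CPM to 139 and 110 (1.06 ± 0.13, edgeR adjusted p = 0.009286). Tbc1d4, a regulator of glucose transporter traffic, rose by 1.18, Inpp5j, an inositol phosphatase, by 1.03 and Cd200, an inhibitory surface ligand, by 1.03. DESeq2 did not call Tbc1d4 (adjusted p = 0.1769). Without the RT + anti-SIRPa library Tbc1d4 was at 0.54, Il7r at 0.62 and Cd200 at 0.63, and without RT Tbc1d4 was at 1.84. Kctd12 was listed at 0 counts in the untreated and both irradiated libraries without anti-PD-1 and at 12535 and 15531 counts with it. The microRNA gene Mir5130 lies within it and had 28 and 34 counts without anti-PD-1 and 1 and 1 with it. How the authors' estimates split reads between overlapping models was not tested, so the level of Kctd12 is uncertain and no fold is given.

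In the other direction H19, an imprinted RNA of growing tissue (chromosome 7, 142575529 to 142578143), was at 208 and 262 CPM without anti-PD-1, at 69.3 and 88.8 with it and at 838 without treatment. Its groups were far apart, at a log2 fold change of -1.56 ± 0.08 (edgeR adjusted p = 0.000844). Itm2a, a membrane protein, fell by 1.52 and Tbx15, a developmental factor, by 1.29 on the log2 scale. Tbx15 was at -0.82 without the RT + anti-PD-1 library. The small structural RNAs Rn7s1, of the signal recognition particle, and Rmrp, of an RNA-processing ribonuclease, fell by 1.58 and 1.34. Rn7s1 was at 5842 and 9795 CPM without anti-PD-1 and at 2278 and 2755 with it. It has near-identical copies, so its counts are uncertain.

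The effect was also read as a single-library ratio with and without anti-SIRPa, with no test. Past 2-fold, 44 of 9554 genes were higher and 146 lower with RT + anti-PD-1 over RT, and 63 were higher and 154 lower with both antibodies over RT + anti-SIRPa. In both ratios 8 genes were higher (0.0837%) and 50 lower (0.523%). Of the 8, Dgkz and Kctd12 are annotated protein-coding genes named above, and the others are predicted or antisense models, among them AC119228.1 opposite Cd274. The 50 included H19, Fads2, Scd1, Elovl6, Fdps, Ccne2, Col5a1, Itm2a and Tbx15. Cd274 had log2 ratios of 0.70 and 0.69, Nos2 of 1.20 and 0.69, Socs1 of 0.41 and 0.74, Cdk1 of -0.86 and -1.06 and Fads2 of -1.30 and -2.29. Genes with similar ratios pass the additive test more readily, so their similarity is built into the calls.

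**Figure D4:**
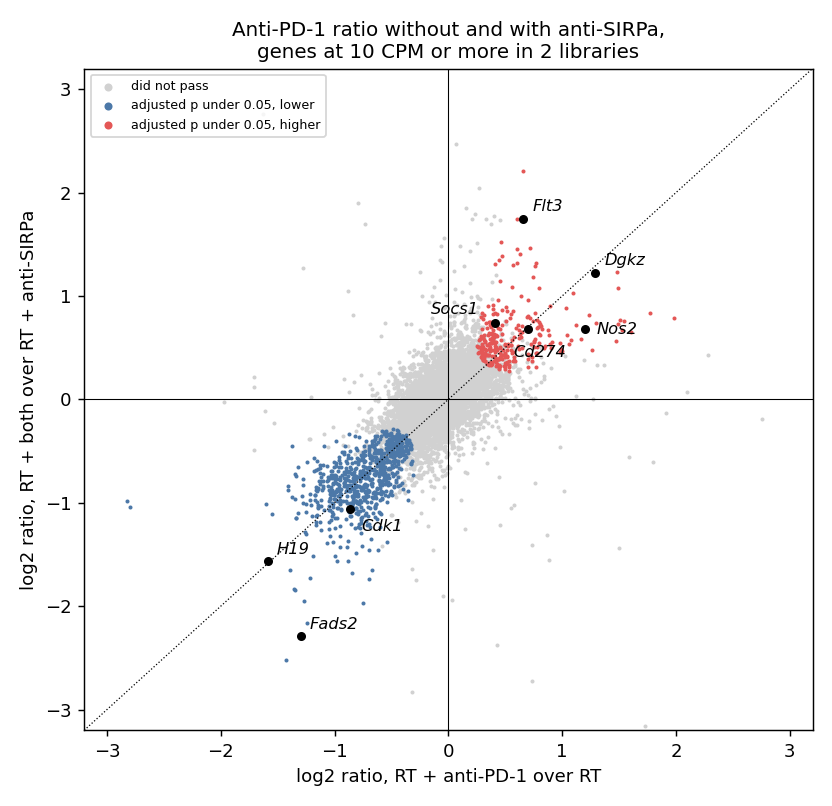
Single-library log2 ratios of 9554 genes, RT + anti-PD-1 over RT (horizontal) against both antibodies over RT + anti-SIRPa (vertical), with called genes in colour, the line of equal ratios dotted, and 14 genes beyond the axis limits of 3.2. Dgkz and H19 lie near the line, and Flt3 and Fads2 have the larger ratio in the presence of anti-SIRPa.

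The same antibody was compared in the 2 other myeloid populations of the same pools, the CD11c-CD11b+ cells and the CD11c+CD11b- cells. Tested on their own, CD11c-CD11b+ cells had no called gene of 19468 (0%), and CD11c+CD11b- cells had 233 higher (1.22%) and 552 lower (2.89%) of 19130. This does not show that the effects differ. The difference between CD11c+CD11b+ and CD11c-CD11b+ cells passed for 0 of 21365 genes in edgeR's test (1054 at an unadjusted p under 0.05, and 20 by DESeq2). The difference from CD11c+CD11b- cells passed for 2 (0.00936%, 1306 at an unadjusted p under 0.05, and 80 by DESeq2), and neither was a member of any list.

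Cd274 had log2 fold changes of 0.71, 0.92 and 0.56 in the CD11c+CD11b+ cells, the CD11c-CD11b+ cells and the CD11c+CD11b- cells. Nos2 was at 0.96, 0.88 and -0.27 in that order, and its difference between CD11c+CD11b+ and CD11c+CD11b- cells, 1.25 ± 0.13, did not pass (edgeR adjusted p = 0.1184). C3 was at 0.68, 0.53 and -0.62, a difference from CD11c+CD11b- cells of 1.32 that did not pass either (edgeR adjusted p = 0.1214). Fads2 was at -1.83, -1.66 and -0.48 (difference from CD11c+CD11b- cells -1.27, edgeR adjusted p = 0.2008). Dgkz was at 1.27, 0.32 and -0.17 (difference from CD11c+CD11b- cells 1.47, edgeR adjusted p = 0.4104). H19 was at -1.56, -1.42 and -2.13, and Fdps stood at -1.23, -1.18 and -0.94.

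By list, the interferon gamma genes had medians of 0.37, 0.53 and 0.05, the cholesterol genes of -0.60, -0.67 and -0.43 and the cell cycle genes of -0.74, -0.56 and -0.27 in the same order. Over all genes tested the medians were 0.00, 0.01 and -0.00. The macrophage markers had medians of -0.02, 0.62 and -0.68. In CD11c-CD11b+ cells none of them passed, since no gene did. The part of these marker levels in the differences between populations was not tested.

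**Figure D5:**
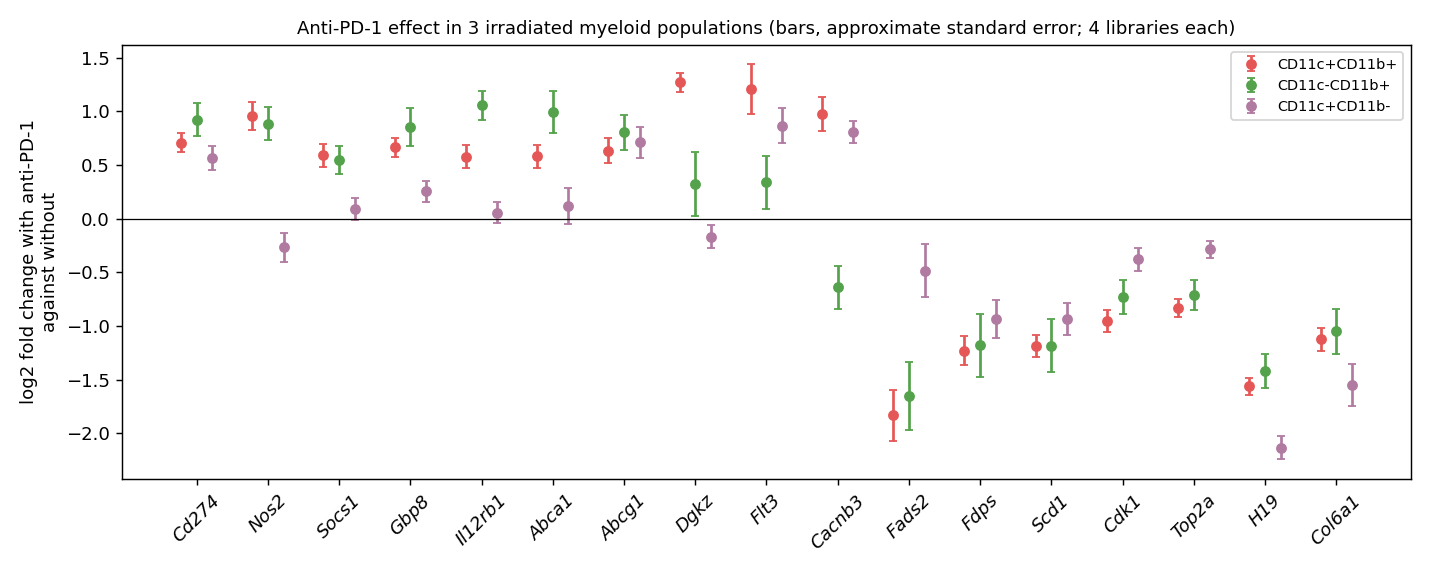
Log2 fold change with anti-PD-1 against without, for 17 genes in 3 irradiated myeloid populations; bars are approximate standard errors from edgeR, with 4 libraries per population. Cd274 and Abcg1 lie above 0 in all 3, while Nos2 is at 0.96 and 0.88 in the CD11b+ populations and at -0.27 in CD11c+CD11b- cells.

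The untreated library places these levels, with no test because it is a single library. Cd274, Socs1, Abca1 and C3 were lower there than in every irradiated library, so that their highest values were in irradiated cells with anti-PD-1. Abca1 was at 335 CPM and C3 at 288. H19, Fads2, Scd1, Fdps and Col3a1 were higher there than in every irradiated library, and lowest with anti-PD-1. Scd1 was at 129 CPM, Fdps at 69.6 and Col3a1 at 3552. Cdk1 lay between the irradiated libraries, above both with anti-PD-1.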

How the data were processed

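RNA-seq of sorted cells was analysed from estimated counts, all whole numbers, per transcript, which the authors computed and deposited. The tools named in the submitters' processing notes are FastQC 0.11.8, HISAT2, StringTie and edgeR 3.34.0, with GRCm38 as genome build. The sources used here do not say whether counting used strand. Estimated counts were not altered: of 142699 transcripts, 141469 matched GENCODE M21 and were summed to 55260 genes. The 1230 others held at most 0.40% of a library.

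R 4.3.3 with edgeR 4.0.16 was used (filterByExpr at minimum count 10 and total 15, TMM, quasi-likelihood F-test, Benjamini-Hochberg limit 0.05), with limma 3.58.1 and DESeq2 1.42.0, and Python 3.11.15 with numpy 2.4.6, pandas 2.3.3 and matplotlib 3.10.9. The test of anti-PD-1 had the 4 irradiated libraries, anti-SIRPa as a term and 1 residual degree of freedom. To this edgeR added a prior of 6.144 degrees of freedom (median), drawn from all genes. Differences between populations were tested in 12 libraries with the pool as a term and 2 residual degrees of freedom. Standard errors divide the size of the log2 fold change by the root of F and are approximate. Single-library ratios used a prior count of 2. Counting error is small at these totals; the number of libraries limits precision.

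The members, 41 gene lists (18 of markers) and rules were chosen with earlier results of these data known. Named genes were 9 genes tied to PD-1, SIRPa and the given markers, the 12 largest called changes per direction at 10 CPM in 2 libraries, and up to 4 members per list. The other members called in the interferon gamma, lipid, cell cycle and matrix lists, with Cxcl10, Srebf1, Cd3e, Col1a1, Csf1r, Zbtb46 and Il4i1, were named after values were seen. Some genes that these rules select are not reported here. On simulated data for the anti-PD-1 test over 19191 genes, 78 of 100 genes changed 2-fold and 100 of 100 changed 4-fold were recovered, and 6 unchanged genes were called. For the difference from CD11c-CD11b+ cells over 21365 genes these were 13, 96 and 4. The simulated libraries had the same dispersion for all genes, no anti-SIRPa effect and no difference between pools. Only genes well above the count filter were changed. These counts therefore cannot tell how many calls in the real data come from differences between pools. Alternatives were RLE normalisation, other filters, DESeq2, other terms or libraries in the fit, each library left out, and prior counts of 0.5 and 10.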

Additional observations from a re-analysis of the deposited data

Results flagged for a closer look

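Of the differences in anti-PD-1 effect between CD11c+CD11b+ and CD11c+CD11b- cells, 2 passed edgeR's test, both in overlapping gene models. Gm26885, an antisense gene that overlaps the kinase gene Pim1 on the opposite strand, differed by 7.03 on the log2 scale (edgeR adjusted p = 0.0009658). Its counts in CD11c+CD11b+ cells were 4 with RT, 677 with RT + anti-SIRPa, 1150 with RT + anti-PD-1 and 1245 with both, and in CD11c+CD11b- cells 817, 481, 1038 and 9. Pim1 had 16785 to 20793 counts in the irradiated CD11c+CD11b+ libraries, and in each population 1 library decided the Gm26885 value. The second Myl12b gene model (ENSMUSG00000117098.1), which overlaps Myl12a and the first Myl12b model on the same strand, differed by 23.86 (edgeR adjusted p = 0.01234). It was listed at 0, 0, 0 and 234 counts in CD11c+CD11b+ cells and at 0, 4046, 0 and 0 in CD11c+CD11b- cells, so the fitted value is no measure of size. Outliers were not looked for, since each treatment had 1 library.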

How the results depend on the processing

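The 1278 calls for anti-PD-1 (368 higher, 910 lower; 28.8% higher) were 1262 with RLE normalisation and 1035 with DESeq2 (33.4% higher), which made 918 of the same calls. Without a filter on low counts there were 0 (0 higher, 0 lower), and with a filter at a mean of 5 CPM 2175 (963 higher, 1212 lower; 44.3% higher). Without the anti-SIRPa term, whose effect then counts as spread, there were 3 (3 higher, 0 lower). A fit of 12 irradiated myeloid libraries gave 436 (51 higher, 385 lower; 11.7% higher) and a fit of all 16 irradiated libraries 669 (88 higher, 581 lower; 13.2% higher). Leaving out RT, RT + anti-SIRPa, RT + anti-PD-1 or RT with both, which also drops the anti-SIRPa term, gave 199, 30, 6 and 3 calls (79, 17, 5 and 2 higher; 120, 13, 1 and 1 lower). The difference from CD11c-CD11b+ cells, 0 genes, became 20 with DESeq2, 5 with 8 libraries and 0 to 12 with a pool left out. The difference from CD11c+CD11b- cells, 2 genes, became 0 without a filter, 80 with DESeq2, 1 without the pool term, 1 without anti-SIRPa terms, 39 with 8 libraries and 0 to 12 with a pool left out. The causes of these changes were not tested beyond the loss of libraries and terms. Of 101 genes examined by name 82 were called, 78 of them also by DESeq2, and none of the 82 changed sign in the alternatives that tested it (11, or 10 for Il4i1 and Ccr9). Signs changed for 4 uncalled genes: Col1a1 (-0.32) was at 0.0210 without RT with both; Srebf1 (0.02) was at -0.0020 in the 16-library fit, -0.0485 without RT and -0.13 without RT with both; Cd47 (0.09) was at -0.0568 without RT + anti-SIRPa; and Cxcl10 (-0.14) was at 0.0134 without RT + anti-PD-1. At prior counts of 0.5 and 10, 8 and 8 genes were higher and 51 and 41 lower past 2-fold in both single-library ratios. Differences between populations had the pool, which the populations share, as a block; without it they became 0 and 1 genes. For anti-PD-1 within CD11c+CD11b+ cells, no paired analysis was possible because each treatment had 1 library.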

Other observations

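Other lists changed in single genes. Of 21 glycolysis and hypoxia genes 1 rose, Pfkfb3, which makes an activator of glycolysis, at 0.42 on the log2 scale. Of 8 neutrophil markers, Mmp8 rose by 0.57 and Mmp9 fell by 0.85 on the log2 scale, and the 8 summed to 231, 411, 298 and 261 CPM in the order RT, RT + anti-SIRPa, RT + anti-PD-1 and both. Mmp8 was at 0.91 without RT, 0.31 without RT + anti-SIRPa, 0.16 without RT + anti-PD-1 and 0.91 without both antibodies' library. Of 5 tested endothelial markers 1 rose, Pecam1, the adhesion molecule CD31 that leukocytes also carry, from 47.4 and 42.1 CPM to 73.1 and 63.5 (0.62, edgeR adjusted p = 0.01116). Of 8 plasmacytoid dendritic cell markers 1 rose, the chemokine receptor gene Ccr9, and of 7 B cell markers 1 fell, Ighm, the heavy chain of IgM, at -0.69, or -0.30 without the RT + anti-SIRPa library. Among 8 NK cell markers Gzma rose and the receptor gene Klra4 fell by 0.77, while the list median was 0.71. Of the 8, 7 had a log2 fold change above 0. An unadjusted p under 0.05 was found for 7 of the 8 and for 4833 of all 19191 genes tested. None of 6 markers of CD4 and regulatory T cells, 4 of mast cells and basophils or 3 of eosinophils passed in edgeR's test, with 0, 2 and 0 at an unadjusted p under 0.05.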
